A study of Mus musculus with 20 samples.

Results

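The S100 genes of the mouse were followed in tumors and tumor cells of the MMTV-PyMT breast cancer model with and without the lysosomal protease cathepsin D (CTSD). The 10 genes were chosen by name from the 45706 genes of the count files: S100a1, S100a4, S100a6, S100a8, S100a9, S100a10, S100a11, S100a13, S100a14 and S100a16. In this model the polyoma middle T oncogene is driven in the mammary epithelium by the mouse mammary tumor virus promoter. RNA was sequenced from whole tumors of 18-week-old PyMT mice, 4 controls and 4 MMTV-cre;Ctsd-/- animals, and from 2 spontaneously immortalized lines of PyMT tumor cells, of which one was Ctsd+/+ and the other MMTV-cre;Ctsd-/-. Control animals were CTSD-competent, with wild-type or unrecombined floxed alleles, and GEO's labels give them as wild type. In MMTV-cre;Ctsd-/- animals the cre recombinase acts in mammary epithelium, so that other cells of the tumor keep the gene. Each line was kept in a starvation medium with 1% fetal calf serum (FCS) for 10 days, called 1% FCS, or for 12 weeks, called 1% FCS LT for long-term, with 3 replicates in each of the 4 cell groups. Because each genotype is 1 line, effects of the genotype and differences between the lines cannot be told apart in cells, and p-values measure only the spread between replicates of a line.

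S100 proteins are small calcium sensors built of a pair of EF-hand loops, and most act as dimers that bind and change other proteins when calcium rises. Several also leave the cell and signal through receptors such as RAGE and TLR4. In breast tumors the family is best known for S100A4, linked to motility and metastasis, for S100A8 and S100A9, which together form calprotectin and are abundant in neutrophils, and for S100A14 and S100A16, which are typical of epithelia.

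All 10 genes lie on mouse chromosome 3 (GRCm38), the first at position 90511034 and the last ending at 93564643, in 2 blocks that stand on either side of the epidermal differentiation genes. S100a1 and S100a13 are divergent neighbours. According to RefSeq their starts are 105 bases apart and their promoter windows, taken from 250 bases before to 50 bases after the start, share 204 bases. RefSeq windows were found for 8 of the 10 genes. S100a10 and S100a14 were not matched. The windows of 4 genes that differed between cell groups are printed below, 5′ to 3′ on the strand of the gene, from the build GRCm38.p6. Capitals mark the motifs searched on both strands, TATAAA of the TATA box, CACCTG of the E-box (CAGGTG on the other strand) and TGANTCA of AP-1 sites. These letters do not overlap in the windows shown, and a window without capitals holds none of them.
S100a1, chr3:90514281-90514580, minus strand, with the start of S100a13 at base 146 and its own start 105 bases further on: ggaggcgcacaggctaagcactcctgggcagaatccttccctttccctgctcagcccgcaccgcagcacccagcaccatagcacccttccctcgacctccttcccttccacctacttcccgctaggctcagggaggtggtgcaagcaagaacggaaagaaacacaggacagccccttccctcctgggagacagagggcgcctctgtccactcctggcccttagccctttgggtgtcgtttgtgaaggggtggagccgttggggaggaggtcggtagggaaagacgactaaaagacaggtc
S100a4, chr3:90603520-90603819, plus strand: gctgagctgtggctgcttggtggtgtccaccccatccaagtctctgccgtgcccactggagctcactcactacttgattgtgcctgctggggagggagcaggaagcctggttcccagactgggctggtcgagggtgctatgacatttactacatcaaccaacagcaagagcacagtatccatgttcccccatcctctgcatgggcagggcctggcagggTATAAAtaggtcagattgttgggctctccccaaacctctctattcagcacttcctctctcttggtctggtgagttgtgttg
S100a8, chr3:90668821-90669120, plus strand: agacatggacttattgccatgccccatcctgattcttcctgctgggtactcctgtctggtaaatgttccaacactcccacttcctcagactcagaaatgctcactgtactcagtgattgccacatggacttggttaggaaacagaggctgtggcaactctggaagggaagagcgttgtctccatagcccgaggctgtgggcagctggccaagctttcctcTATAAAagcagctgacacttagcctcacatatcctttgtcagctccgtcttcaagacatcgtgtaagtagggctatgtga
S100a16, chr3:90537004-90537303, plus strand, the first of its 2 windows: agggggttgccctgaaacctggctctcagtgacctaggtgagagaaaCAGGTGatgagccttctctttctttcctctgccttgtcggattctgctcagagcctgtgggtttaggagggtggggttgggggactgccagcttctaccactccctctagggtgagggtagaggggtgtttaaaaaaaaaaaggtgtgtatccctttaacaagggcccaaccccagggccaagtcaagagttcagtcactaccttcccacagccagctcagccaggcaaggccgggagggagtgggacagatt
TATAAA begins 31 bases before the start of S100a4 and 30 bases before that of S100a8, and 13.6% of all 32851 windows of this length hold it. CACCTG begins 203 bases before the start of S100a16 and is held by 20.2% of all windows. TGANTCA is in none of the windows shown and in 7.81% of all windows. Of the windows not printed, the second of S100a16 holds it 192 bases before its start and that of S100a11, which also differed in cells, 136 and 38 bases before the start, and that of S100a9 holds TATAAA at the start itself and CACCTG 53 bases before it. The S100a1 and S100a13 windows, which share 204 bases, hold no motif and carry 11 and 14 CG dinucleotides, against a median of 7 over all windows. Of all windows 58.6% and 63.7% carry fewer than these 2. The printed windows of S100a4 and S100a16 carry 2 each and that of S100a8 carries 4. Of the other windows, that of S100a11 carries 15, that of S100a6, also without a motif, 6, that of S100a9 2 and the second of S100a16 4.

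Counts on genes ranged from 49725437 to 64291587 per tumor and from 33622831 to 40239762 per cell sample. Levels are given as CPM, counts relative to library size, with edgeR's TMM scaling applied within tumors and within cells. Differences are log2 fold changes with standard errors (SE) and adjusted p-values from edgeR's two-sided quasi-likelihood test over all genes tested, unless a p-value is named as unadjusted. A difference was called at an adjusted p under 0.05. In tumors an unadjusted p under 0.1, the threshold of the study, was also counted. Libraries of the control tumors and of the MMTV-cre;Ctsd-/- tumors carry different batch codes in the labels, which do not say what a code stands for, and genotype therefore cannot be told apart from batch code there.

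Ctsd itself followed the labels. It stood at 1860, 2617, 1781 and 2532 CPM in the control tumors and at 797, 360, 1295 and 1233 CPM in the MMTV-cre;Ctsd-/- tumors. In 1% FCS it was 4199, 2858 and 1267 CPM in Ctsd+/+ against 192, 141 and 131 CPM in Ctsd-/- samples. At 12 weeks the values were 1627, 1667 and 1895 CPM in Ctsd+/+ against 123, 114 and 151 CPM in Ctsd-/- samples. The groups did not overlap in any of these comparisons. In tumors the log2 fold change was -1.25 (SE 0.38, adjusted p = 0.463). In cells it was -4.16 at 10 days (SE 0.37, adjusted p = 4.34e-06), and at 12 weeks -3.74 (SE 0.36, adjusted p = 1.24e-05). These counts cover the whole gene, exons outside the deletion included.

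Between genes, levels were compared as CPM per kb of merged exon, scaled over all 20 samples and without a test between tumors and cells, which differ in library type. S100a11 and S100a6, both widely expressed and linked to membranes and annexins, dominated the cells. In 1% FCS Ctsd+/+ cells S100a6 reached 1253 ± 102 and S100a11 726 ± 147 CPM per kb (SD, n = 3), and in 1% FCS Ctsd-/- cells S100a11 reached 1731 ± 361 and S100a6 1415 ± 452 CPM per kb. S100a10 came next in all 4 cell groups. In control tumors S100a11 stood at 1675 ± 401 CPM per kb (SD, n = 4), followed by S100a1 with 490 ± 242, S100a6 with 377 ± 241 and S100a16 with 377 ± 195 CPM per kb. S100a1, S100a13, S100a8, S100a9 and S100a16 were higher in every tumor than in every cell sample, and S100a6 was higher in every cell sample than in every tumor. For S100a10 the ranges of neighbouring groups overlapped along the whole order of the 6 groups.

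**Figure D1:**
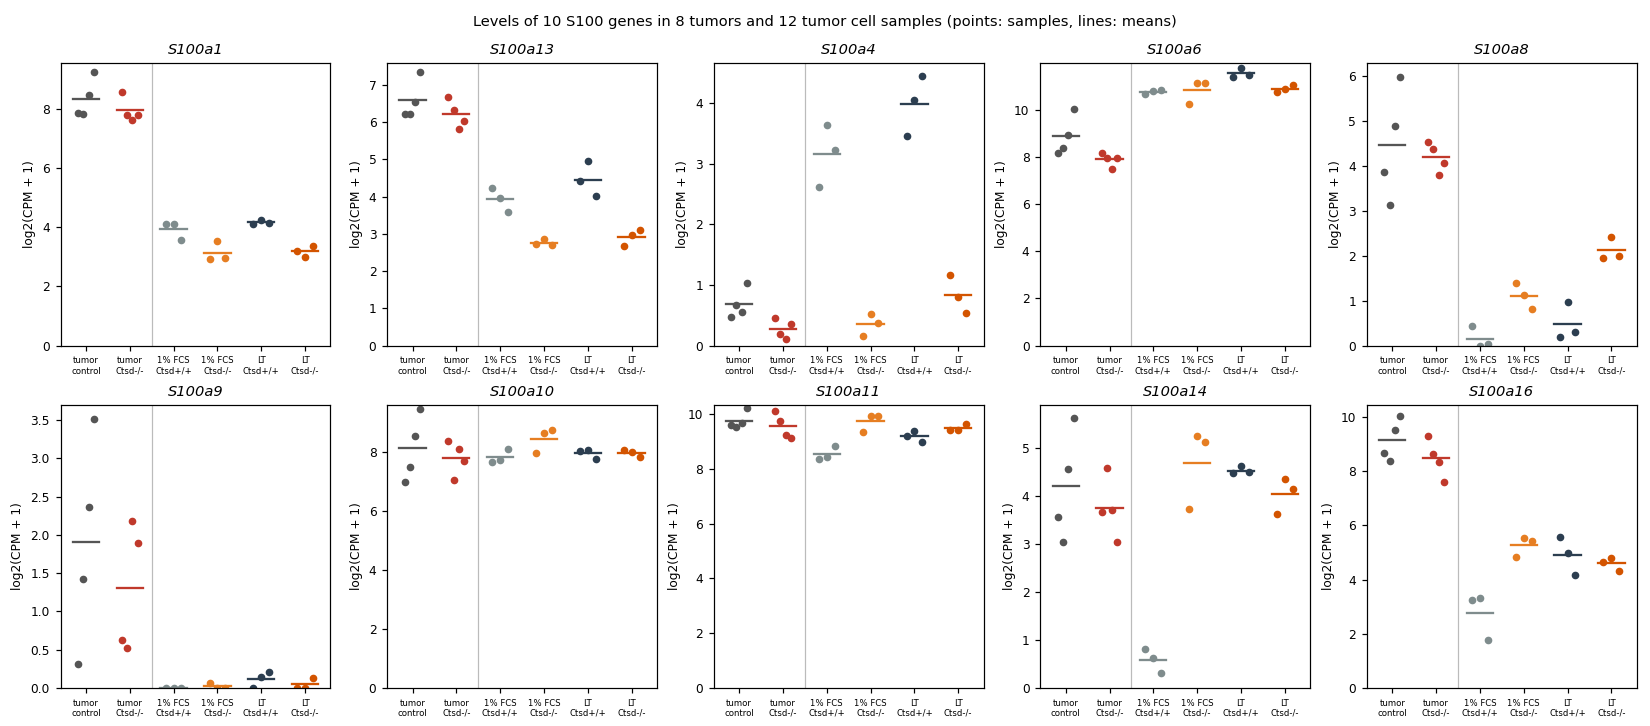
Each panel plots 1 S100 gene as log2(CPM + 1) in 4 control and 4 MMTV-cre;Ctsd-/- tumors (left of the grey line) and in the 4 cell groups of 3 samples, with a point per sample and a line at the group mean; CPM is scaled within tumors and within cells. S100a4 separates the genotypes in both culture times, among the cell groups S100a14 is near 0 in 1% FCS Ctsd+/+ cells, and control tumor 4 has the highest value among control tumors in all 10 panels.

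The summed level of the 10 genes was 2383 ± 201 CPM (SD, n = 3 in each cell group) in 1% FCS Ctsd+/+ and 3199 ± 910 CPM in 1% FCS Ctsd-/- cells, and after 12 weeks 3931 ± 503 CPM in Ctsd+/+ and 2931 ± 261 CPM in Ctsd-/- cells. These sums are made mostly of S100a6, S100a11 and S100a10 and say little of the scarce members.

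In 1% FCS, 8 of the 9 members that passed the filter on low counts differed between Ctsd-/- and Ctsd+/+ cells, beside 48.5% of all 15178 genes tested. In Ctsd-/- cells 5 were higher (23.5% of all genes) and 3 were lower (25.1%). S100a9 did not pass the filter. The groups of 7 members did not overlap, beside 55.2% of all genes. With an absolute log2 fold change above 1 added, 4 remained on the higher and 2 on the lower side, beside 25.0% of all genes in either direction.

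The 3 members that were lower in Ctsd-/- cells, S100a4, S100a1 and S100a13, were lower at both culture times. S100a4, the metastasis-associated binder of non-muscle myosin, had 5.13, 11.4 and 8.32 CPM in Ctsd+/+ samples of 1% FCS against 0.122, 0.438 and 0.296 CPM in the Ctsd-/- samples. Every Ctsd-/- sample lay below every Ctsd+/+ sample. The log2 fold change was -4.87 with an SE of 0.53 and an adjusted p of 1.84e-05. In long-term culture S100a4 had 10.1, 15.7 and 20.8 CPM in Ctsd+/+ against 1.25, 0.747 and 0.460 CPM in Ctsd-/- samples, again without overlap, with a log2 fold change of -4.24 (SE 0.48, adjusted p = 3.92e-05). The counts behind the low values were small, between 5 and 16 per sample in 1% FCS and between 19 and 52 in 1% FCS LT. In the GENCODE M21 annotation 302 of the 584 exon bases of S100a4 are shared with Gm42674, a gene model on the same strand that is also a row of the count files and has 0 counts in all 20 samples. STAR sets aside reads that overlap more than 1 gene. If the annotation behind the counts held the same exons, 282 bases were left to count on and the level of S100a4 relative to other genes is understated, which was not tested.

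S100a1, best known from heart and skeletal muscle where it tunes calcium release, had 16.4, 16.4 and 10.8 CPM in Ctsd+/+ samples of 1% FCS against 6.69, 10.6 and 6.71 CPM in the Ctsd-/- samples. The groups came close, at 10.8 and 10.6 CPM, but did not overlap, and the log2 fold change was -0.86 (SE 0.22, adjusted p = 0.00688). After 12 weeks the values were 16.4, 18.0 and 16.7 CPM against 8.26, 6.98 and 9.38 CPM, a log2 fold change of -1.05 (SE 0.22, adjusted p = 0.00257). S100a13, which takes part in the release of FGF1 and IL-1α from cells, shares 204 bases of promoter window with S100a1, as printed above. It had 17.7, 14.5 and 11.1 CPM in Ctsd+/+ samples of 1% FCS against 5.67, 6.22 and 5.47 CPM in the Ctsd-/- samples, a log2 fold change of -1.32 (SE 0.25, adjusted p = 0.00104). At 12 weeks the gene had 20.3, 29.9 and 15.3 CPM in Ctsd+/+ against 5.41, 6.80 and 7.59 CPM in Ctsd-/- samples, a log2 fold change of -1.72 (SE 0.25, adjusted p = 0.000225). For both genes all Ctsd-/- samples lay below all Ctsd+/+ samples at each time. Centred log2 profiles of the 2 genes over the 12 cell samples differed by a root mean square of 0.380, the second smallest of all pairs among the 9 members, after 0.322 for S100a10 and S100a11.

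**Figure D2:**
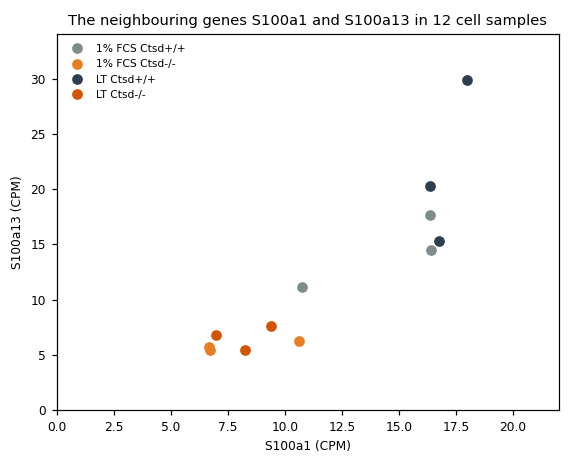
S100a13 is plotted against S100a1, both in CPM, with a point for each of the 12 cell samples coloured by group. The 6 Ctsd-/- samples sit at or below 10.6 CPM of S100a1 and 7.59 CPM of S100a13, and the 6 Ctsd+/+ samples at or above 10.8 and 11.1 CPM.

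S100a8 was higher in Ctsd-/- cells at both times, at low levels. Its counts were 12, 0 and 1 in 1% FCS Ctsd+/+ samples and 67, 43 and 26 in 1% FCS Ctsd-/- samples, or 1.63, 1.18 and 0.769 CPM in the latter. The log2 fold change of 3.21 (SE 0.93, adjusted p = 0.0126) rests on 13 reads in the Ctsd+/+ group, 12 of them in replicate 1, and was 6.11 without that replicate. In long-term culture S100a8 had 0.135, 0.959 and 0.228 CPM in Ctsd+/+ against 2.87, 4.38 and 3.00 CPM in Ctsd-/- samples, without overlap, and a log2 fold change of 2.95 (SE 0.79, adjusted p = 0.0113). Its calprotectin partner S100a9 had no reads in 8 of the 12 cell samples and at most 6 in any, where 3 counts in the smallest cell library amount to 0.0892 CPM. No difference in S100a9 was detectable in cells at this depth. Markers of neutrophils, the usual source of both genes, were scarce as well. The 10 markers summed to 1.12 CPM in 1% FCS Ctsd-/- cells, mostly Ly6g with 1.04 CPM, and to 0.740 CPM in 1% FCS LT Ctsd-/- cells, against 0.0576 and 0.251 CPM in the corresponding Ctsd+/+ cells. Ly6g was the only 1 of the 10 to pass the filter and was called higher in Ctsd-/- cells at both times, as was S100a8, with a log2 fold change of 6.33 in 1% FCS (adjusted p = 0.000212) and of 4.15 in 1% FCS LT (adjusted p = 0.00151). The Ly6g means in Ctsd+/+ cells, 0.0102 and 0.0342 CPM, lay below the 0.0892 CPM of 3 counts, so the size of these changes is imprecise. Retnlg, Ngp and Camp had no reads in any of the 12 cell samples. Cd68, a lysosomal glycoprotein of macrophages, was higher in Ctsd-/- cells at both times, with means of 12.3 against 2.83 CPM in 1% FCS (log2 fold change 2.12, adjusted p = 0.00829) and of 10.3 against 3.52 CPM in 1% FCS LT (log2 fold change 1.54, adjusted p = 0.0424). Of the other macrophage markers 2 passed the filter in cells. Csf1r was at -0.18 in 1% FCS (adjusted p = 0.780) and lower in Ctsd-/- cells in 1% FCS LT, at -3.42 (adjusted p = 0.000257), and Cd163 was at -2.88 (adjusted p = 0.0563) and lower in 1% FCS LT, at -2.59 (adjusted p = 0.0275). The part of these markers in the S100a8 difference was not tested.

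S100a14 and S100a16, the epithelial pair, were higher in Ctsd-/- cells in 1% FCS, while their differences in 1% FCS LT did not pass the test. S100a14 had 0.750, 0.550 and 0.235 CPM in 1% FCS Ctsd+/+ cells, from 25, 18 and 9 reads, and 12.2, 37.2 and 33.9 CPM in 1% FCS Ctsd-/- cells. The log2 fold change was 5.77 (SE 0.49, adjusted p = 3.29e-06). After 12 weeks the Ctsd+/+ cells had 21.3, 23.9 and 21.6 CPM and the Ctsd-/- cells 11.4, 19.7 and 16.7 CPM. Here all Ctsd-/- samples lay below the Ctsd+/+ samples, but the log2 fold change of -0.48 (SE 0.37) had an adjusted p of 0.332. S100a16 had 8.55, 8.95 and 2.41 CPM in Ctsd+/+ samples of 1% FCS against 27.7, 45.2 and 42.5 CPM in the Ctsd-/- samples, a log2 fold change of 2.54 (SE 0.46, adjusted p = 0.000798). After 12 weeks the gene had 46.3, 30.3 and 17.0 CPM in Ctsd+/+ against 24.1, 27.1 and 19.0 CPM in Ctsd-/- samples, which overlapped, with an adjusted p of 0.477.

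S100a11 and S100a10, which bind annexins A1 and A2 at membranes, were also higher in 1% FCS Ctsd-/- cells. S100a11 had 325, 345 and 456 CPM in Ctsd+/+ against 656, 974 and 968 CPM in Ctsd-/- samples, without overlap, with a log2 fold change of 1.21 (SE 0.18, adjusted p = 0.000241). At 12 weeks the values were 582, 674 and 511 CPM against 692, 684 and 808 CPM, a log2 fold change of 0.31 with an adjusted p of 0.207. S100a10 had 200, 209 and 276 CPM in Ctsd+/+ samples of 1% FCS against 247, 403 and 427 CPM in the Ctsd-/- samples. These groups overlapped, and the log2 fold change of 0.65 (SE 0.19) had an adjusted p of 0.0158. That call was lost, with adjusted p-values above 0.05, when 1 of 4 replicates was left out in turn, replicate 1 or 2 of Ctsd+/+ or replicate 2 or 3 of Ctsd-/-. In long-term culture S100a10 means were 247 ± 28.1 and 250 ± 18.9 CPM (SD, n = 3) with an adjusted p of 0.963. A processed pseudogene of S100a11 had at most 2 counts in any sample.

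S100a6, calcyclin, linked to proliferating cells, had 1609, 1776 and 1818 CPM in Ctsd+/+ samples of 1% FCS against 1191, 2249 and 2238 CPM in the Ctsd-/- samples. The Ctsd-/- replicates spread on both sides of the Ctsd+/+ values (adjusted p = 0.657). After 12 weeks the gene had 2694, 3451 and 2814 CPM in Ctsd+/+ against 1686, 1879 and 2119 CPM in Ctsd-/- samples, without overlap, and a log2 fold change of -0.66 (SE 0.22, adjusted p = 0.0320). The S100a6 call at 12 weeks was lost when Ctsd+/+ replicate 2 or 3 or Ctsd-/- replicate 1 or 2 was left out.

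At 12 weeks 5 of 9 members thus differed between the genotypes, 1 of them higher in Ctsd-/- cells and 4 lower, beside 39.6% of all genes in either direction, 20.5% higher and 19.1% lower. The groups of 7 members did not overlap, 2 higher and 5 lower in Ctsd-/- cells, beside 54.2% of all genes. The genotype comparisons at the 2 times use different samples.

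The corrected comparison, the genotype difference in 1% FCS LT minus that in 1% FCS, tests whether a difference changed with time. It called 3 of 9 members, all negative, beside 30.3% of all genes and 14.1% in the negative direction. S100a14 had a value of -6.26 (SE 0.61, adjusted p = 2.61e-05), S100a16 of -2.96 (SE 0.63, adjusted p = 0.00419) and S100a11 of -0.90 (SE 0.26, adjusted p = 0.0212). The call of S100a11 was lost without any 1 of 5 replicates, namely 1% FCS Ctsd-/- replicate 2 or 3, 1% FCS LT Ctsd+/+ replicate 2, and 1% FCS LT Ctsd-/- replicate 1 or 2. Without replicate 1 of 1% FCS Ctsd-/- 5 members were called, beside 28.3% of all genes in that fit, S100a6 and S100a10 in addition. With the replicate number as a block 4 members were called, beside 31.1% of all genes, S100a6 in addition at -0.74 (adjusted p = 0.0490). For S100a4, S100a1, S100a13 and S100a8, which differed at both times, the change between times did not pass the test, with adjusted p-values of 0.518, 0.676, 0.410 and 0.890.

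**Figure D3:**
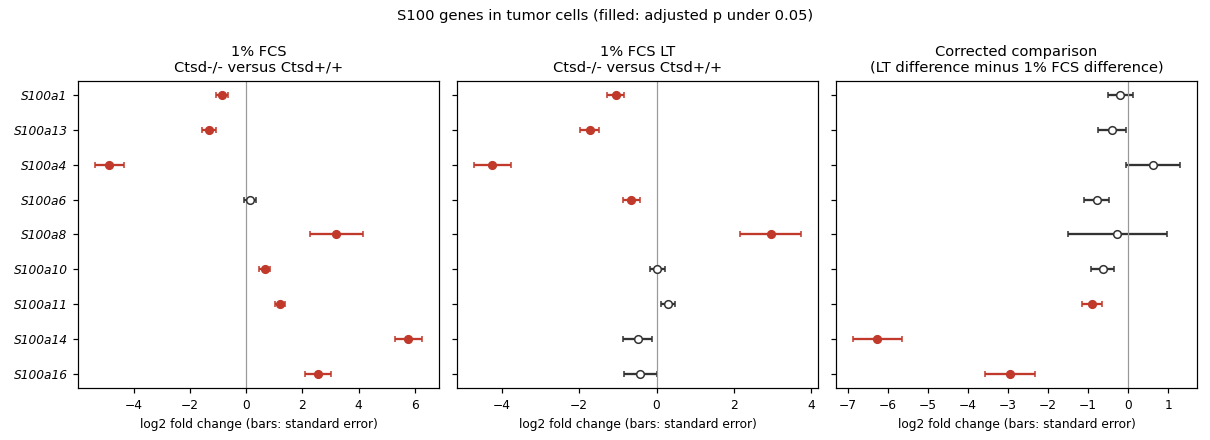
Log2 fold changes of the 9 tested S100 genes are plotted with standard errors for Ctsd-/- versus Ctsd+/+ cells in 1% FCS (left), in 1% FCS LT (middle) and for the corrected comparison (right); filled points have an adjusted p under 0.05, and the axes differ in range. S100a1, S100a13, S100a4 and S100a8 are filled in both genotype panels, while S100a14 and S100a16 are filled in 1% FCS and in the corrected comparison.

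The time effect was also tested within each genotype. From 1% FCS to 1% FCS LT, 4 of 9 members rose in Ctsd+/+ cells and none fell, beside 46.4% of all genes, 23.0% upward and 23.4% downward. The groups of 4 members did not overlap between the times, beside 53.7% of all genes. S100a14 rose with a log2 fold change of 5.45 (SE 0.49, adjusted p = 4.97e-06) and S100a16 with one of 2.24 (SE 0.46, adjusted p = 0.00186). S100a6 rose with a log2 fold change of 0.78 (SE 0.22, adjusted p = 0.0116) and S100a11 with one of 0.65 (SE 0.18, adjusted p = 0.0121), the latter no longer past the threshold without 1% FCS LT Ctsd+/+ replicate 2. In Ctsd-/- cells 0 of 9 members passed the edgeR test, beside 2.38% of all genes (1.57% upward, 0.81% downward, and 1.48% with an absolute log2 fold change above 1). At an unadjusted p under 0.05 there were 2, beside 18.0% of all genes, S100a4 with a log2 fold change of 1.53 (adjusted p = 0.159) and S100a10 with -0.52 (adjusted p = 0.184). The groups of 3 members did not overlap between the times in Ctsd-/- cells, beside 25.4% of all genes. In 1% FCS LT S100a4 and S100a8 were the higher ones and S100a16 the lower one. S100a8 had a log2 fold change of 1.51 (adjusted p = 0.306) and S100a16 one of -0.72 (adjusted p = 0.422). DESeq2 called 1 member, S100a4, beside 7.10% of all genes, and limma-voom 0, beside 2.00%. Without replicate 1 of 1% FCS Ctsd-/- edgeR called 1, S100a10, beside 1.43% of all genes. In Ctsd+/+ cells 6 members were called without replicate 1 of 1% FCS, beside 42.3% of all genes, S100a13 and S100a8 in addition. The 2 genotype comparisons and the 2 time comparisons share samples and are not independent of each other.

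The 1% FCS Ctsd+/+ group stood apart from the other cell groups in its cell type markers as well. Epcam, a surface protein of epithelial cells, had 128, 171 and 145 CPM there and between 648 and 858 CPM in the other 9 cell samples. The 8 luminal epithelial markers summed to 1631 CPM in this group and to 12780, 6952 and 8779 CPM in 1% FCS Ctsd-/-, 1% FCS LT Ctsd+/+ and 1% FCS LT Ctsd-/- cells. Vim, the mesenchymal intermediate filament, ran the other way in part. It had 2750, 2967 and 3481 CPM in 1% FCS Ctsd+/+ cells, at most 11.1 CPM in 1% FCS Ctsd-/- and 1% FCS LT Ctsd+/+ cells, and 810, 506 and 38.1 CPM in 1% FCS LT Ctsd-/- cells. The 7 mesenchymal markers, led by Fn1, summed to 53120, 13860, 21910 and 10900 CPM and the 9 fibroblast markers to 2266, 17.4, 5.34 and 44.2 CPM in 1% FCS Ctsd+/+, 1% FCS Ctsd-/-, 1% FCS LT Ctsd+/+ and 1% FCS LT Ctsd-/- cells. Col1a1 led the fibroblast markers in the first group with 1437 CPM, while Lum had no reads there. Fn1 makes up most of the mesenchymal sums. Of the 7 mesenchymal markers 6 were called lower in Ctsd-/- cells in 1% FCS and none higher, beside 48.5% of all genes in either direction. In 1% FCS LT 4 were called higher and 1 lower, beside 39.6%. S100a14 and S100a16 were lowest in the same 3 samples that were lowest in Epcam and highest in Vim. In the Ctsd+/+ line S100a4 had 10.1 to 20.8 CPM in 1% FCS LT, where Vim had 3.03, 0.906 and 7.17 CPM. In 1% FCS LT Ctsd-/- samples S100a4, with 1.25, 0.747 and 0.460 CPM, and Vim had the same order over the 3 replicates, and both means were above those of 1% FCS Ctsd-/- cells. The part of cell composition or cell state in the S100 differences was not tested, and in bulk RNA fewer cells of a type and less RNA per cell cannot be told apart.

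**Figure D4:**
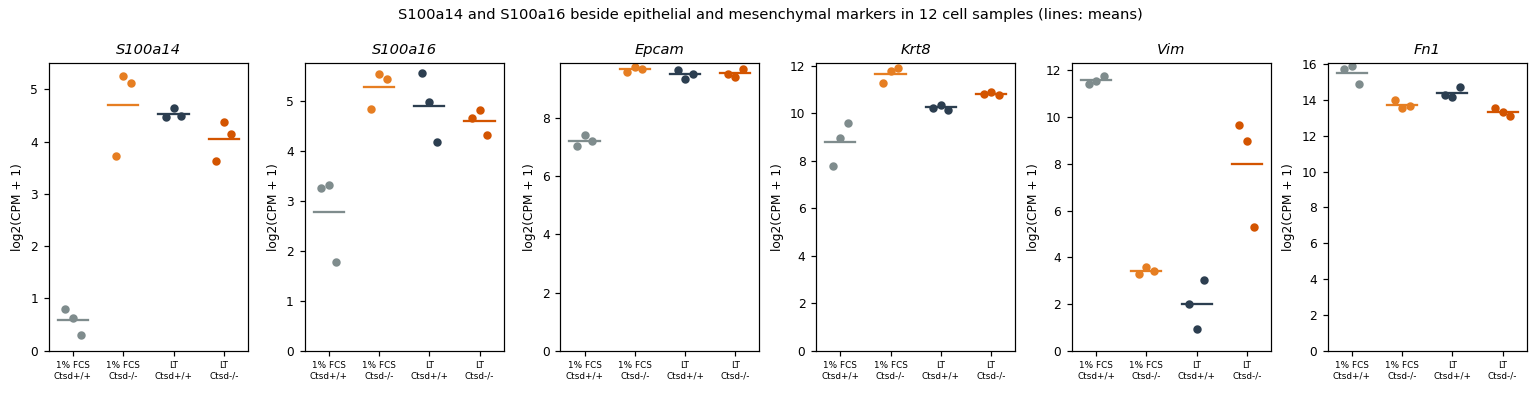
S100a14 and S100a16 are shown beside the epithelial markers Epcam and Krt8 and the mesenchymal markers Vim and Fn1, as log2(CPM + 1) in the 12 cell samples, with a point per sample and a line at the group mean. The 3 samples of 1% FCS Ctsd+/+ cells are lowest in S100a14, S100a16, Epcam and Krt8 and highest in Vim and Fn1.

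The remaining marker lists summed on average to at most 68.2 CPM in each cell group. The 9 macrophage markers summed to 9.85, 18.2, 60.0 and 16.3 CPM in the 4 cell groups in the same order, with Csf1r the most abundant in the Ctsd+/+ groups, at 6.39 and 55.2 CPM, and Cd68 in the Ctsd-/- groups, and C1qc had no reads in any of the 12. The 5 basal or myoepithelial markers summed to 68.2, 7.39, 54.3 and 4.86 CPM, led by Krt14, with the 2 higher values in the Ctsd+/+ groups, where S100a1, S100a13 and S100a4 were also higher. Of these 5 markers 3 were called lower and 1 higher in Ctsd-/- cells in 1% FCS, beside 48.5% of all genes. In 1% FCS LT 1 was lower and none higher, beside 39.6%. Krt5 was the higher one, at 2.53 (adjusted p = 0.0369), and was at 1.86 in 1% FCS LT (adjusted p = 0.0715). The part of the basal markers in the S100 differences was not tested. Adipocyte, lymphocyte, keratinocyte, skeletal muscle, Schwann and endothelial lists each summed to less than 5 CPM on average in every cell group. Among them Fabp4 of adipocytes, Cdh5 of endothelial cells and Mylpf of skeletal muscle were called higher in Ctsd-/- cells at both times. Fabp4 had means of 0.405 CPM in 1% FCS Ctsd-/- and 0.972 CPM in 1% FCS LT Ctsd-/- cells. Its mean in 1% FCS Ctsd+/+ cells, 0.0274 CPM, lay below the 0.0892 CPM of 3 counts. The whole adipocyte list was also below it in 1% FCS LT Ctsd-/- replicate 1, at 0.0479 CPM, so the size of the Fabp4 changes is imprecise.

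Genes with profiles nearest to those of 4 members were found over the 12 cell samples, by the root mean square difference of centred log2 CPM among 15178 genes. The 4 members were those with the widest range of group means. Nearest to S100a14 were Tspan1 (0.700), Sh3tc1 (0.737) and Ano9 (0.762). Nearest to S100a4 were Nap1l2 (0.579), Ptprs (0.640) and Kctd12 (0.702). Ptprs, a receptor-type phosphatase, had means of 554 and 778 CPM in Ctsd+/+ and of 34.1 and 61.9 CPM in Ctsd-/- cells in 1% FCS and 1% FCS LT. S100a8 was closest to Tmem56 (0.710), Arhgap6 (0.818) and Rufy4 (0.849), and S100a16 to Ildr1 (0.463), a component of tricellular junctions, Padi3 (0.469) and Camsap3 (0.516).

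In cells each batch code of the labels holds both genotypes. Replicate 1 of both 1% FCS groups and replicate 3 of both 1% FCS LT groups have codes other than that of the remaining 8 samples. Within those 8, with 2 samples per group, S100a14 had a log2 fold change of 6.52 in 1% FCS (adjusted p = 1.7e-05), S100a16 of 2.96 (adjusted p = 0.00212), S100a11 of 1.28 (adjusted p = 0.000389), S100a13 of -1.13 (adjusted p = 0.00656) and S100a4 of -4.73 (adjusted p = 7.73e-05). S100a8 was at 5.81 (adjusted p = 0.00642) and S100a10 at 0.77 (adjusted p = 0.00277), and S100a1 was at -0.65 with an adjusted p of 0.0881 and lost its call. In long-term culture the same 8 samples gave -1.17 for S100a1, -2.04 for S100a13 and -3.68 for S100a4, all called, and 2.72 for S100a8 (adjusted p = 0.0176). S100a6 was called as well, at -0.79 (adjusted p = 0.00493). The corrected comparison gave -7.06 for S100a14, -3.54 for S100a16 and -1.14 for S100a11 there, and called S100a6 (-1.11) and S100a10 (-0.79) in addition. Of all genes, 44.7% were called in 1% FCS, 37.3% in 1% FCS LT and 27.7% in the corrected comparison of these 8 samples.

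The other members of the family were counted too. Of 7 with an identifier in the files, S100a2, S100a3, S100a7a and S100b passed the filter in cells. S100a7a, the mouse psoriasin-related gene of the epidermis, had means of 3.02 ± 1.98 CPM in 1% FCS Ctsd+/+ and 31.4 ± 10.7 CPM in 1% FCS Ctsd-/- cells (log2 fold change 3.37, adjusted p = 0.00175), and a value of -2.85 (adjusted p = 0.0324) in the corrected comparison. S100a3, a gene of the hair cuticle, rose with time in Ctsd+/+ cells with a log2 fold change of 2.17 (adjusted p = 0.000234) and was lower in Ctsd-/- cells in 1% FCS LT, with a log2 fold change of -2.15 (adjusted p = 0.000311). S100a2 was called in both genotype comparisons with opposite signs, 2.31 and -1.71, at means of at most 0.411 CPM. S100b was not called, and S100a5, S100g and S100z did not pass the filter in cells.

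Annexins, membrane-binding partners of several S100 proteins, were counted next. Of the 12 annexins 10 were tested in cells, and in 1% FCS 7 were higher and 1 lower in Ctsd-/- cells, beside 23.5% of all genes higher and 25.1% lower, with a median log2 fold change of 0.69. Anxa3 had the largest rise among them, with 382 ± 43.0 CPM in Ctsd+/+ and 1217 ± 32.6 CPM in Ctsd-/- cells (log2 fold change 1.67, adjusted p = 3.53e-06). Anxa8 was the one that was lower, at -2.06 (adjusted p = 4.02e-05). After 12 weeks 3 annexins were higher and 3 lower, beside 39.6% of all genes in either direction. Anxa1, a partner of S100a11, went from 633 to 2583 CPM with time in Ctsd+/+ cells. It had a value of -2.58 (adjusted p = 0.000360) in the corrected comparison, the same sign as S100a11. In that comparison 9 of 10 annexins and 8 of 9 members were negative, beside a median of -0.0035 over all genes. In 1% FCS LT Anxa1 was lower in Ctsd-/- cells (log2 fold change -1.40, adjusted p = 0.00133), while S100a11 was at 0.31 (adjusted p = 0.207). The median log2 fold change of the 9 members themselves was 0.65 in 1% FCS and -0.48 in 1% FCS LT, against 0.000246 and 0.01 over all genes.

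S100a10 is held in a complex with annexin A2, which protects it from degradation. The ratio of S100a10 to Anxa2 counts was 0.148, 0.142 and 0.212 in 1% FCS Ctsd+/+ cells and 0.295, 0.331 and 0.319 in 1% FCS Ctsd-/- cells, a difference of 0.94 on the log2 scale. At 12 weeks it was 0.167, 0.171 and 0.199 against 0.296, 0.243 and 0.296, a difference of 0.64. In both cases the groups did not overlap, and the two-sided exact permutation p was 0.1, the smallest that 3 against 3 samples allow (0.25 adjusted over 5 comparisons). Neither comparison could pass 0.05. Anxa2 itself was lower in Ctsd-/- cells at 12 weeks, with a log2 fold change of -0.63 (adjusted p = 0.0249), where S100a10 was at 0.014 (adjusted p = 0.963). In 1% FCS Anxa2 was at -0.28 (adjusted p = 0.259) and S100a10 at 0.65 (adjusted p = 0.0158). With time the ratio differed by -0.18 in Ctsd-/- and by 0.12 in Ctsd+/+ cells (exact permutation p = 0.3 and 0.6).

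Among 16 partners and receptors of S100 proteins 13 were tested in cells, of which 5 were lower in Ctsd-/- cells in 1% FCS and none higher, and 7 lower and 1 higher in 1% FCS LT. Over all genes 48.5% were called in 1% FCS, 25.1% as lower, and 39.6% in 1% FCS LT, 19.1% as lower. Myh9, the non-muscle myosin heavy chain that S100A4 binds, had 4322 ± 795 CPM in 1% FCS Ctsd+/+ and 2644 ± 134 CPM in 1% FCS Ctsd-/- cells (log2 fold change -0.71, adjusted p = 0.00289). In 1% FCS LT it had 1633 ± 160 CPM in Ctsd+/+ and 1842 ± 198 CPM in Ctsd-/- cells (log2 fold change 0.17, adjusted p = 0.409). Its value in the corrected comparison was 0.88 (adjusted p = 0.0106). Cyba, a subunit of the NADPH oxidase that S100A8 and S100A9 assist, had 26.5 ± 1.57 CPM in 1% FCS Ctsd+/+ cells and 0.121 ± 0.0822 CPM in 1% FCS LT Ctsd+/+ cells (SD, n = 3), and no reads in Ctsd-/- cells at either time. Il1a, released together with S100A13, rose with time in Ctsd+/+ cells with a log2 fold change of 4.99 (adjusted p = 0.000966). Of 9 other EF-hand proteins, 2 were higher and 4 lower in Ctsd-/- cells in 1% FCS and 2 each in 1% FCS LT, against the same 48.5% and 39.6% of all genes. Rcn1, a calcium binder of the endoplasmic reticulum, had the largest difference, 136 ± 26.0 against 12.3 ± 4.39 CPM in 1% FCS (log2 fold change -3.46, adjusted p = 1.75e-05). Of the 7 fused-type S100 genes 1 passed the filter in cells, Tchh, which was higher in 1% FCS Ctsd-/- cells by a log2 fold change of 1.88 (adjusted p = 7.99e-05).

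The stretch of chromosome 3 between the outermost members holds 65 other protein-coding genes, of which 14 were tested in cells. In 1% FCS 9 of the 14 were higher in Ctsd-/- cells and 1, Sprr1a, was lower, and in 1% FCS LT 4 were higher and 3 lower, beside 48.5% and 39.6% of all genes in either direction. Crct1 and Lce1g, genes of the epidermal differentiation complex, were higher in Ctsd-/- cells at both times. Lce1g had means of 66.7 and 57.3 CPM in Ctsd-/- and of 1.39 and 1.17 CPM in Ctsd+/+ cells in 1% FCS and 1% FCS LT. Lists that share genes overlap here, since S100a2, S100a3, S100a7a and Tchh count among these neighbours too.

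In tumors the differences were small against the spread. All 10 members had a negative log2 fold change (MMTV-cre;Ctsd-/- against control), and their median was -0.69 against 0.000728 over all 18617 genes tested. None passed an adjusted p under 0.05 in edgeR, beside 0.00537% of all genes, and none did in limma-voom or DESeq2, beside 0.0107% and 1.42% of all genes. At an unadjusted p under 0.1, 2 members were lower and none higher, beside 8.27% of all genes lower and 16.7% in either direction. Both also had an unadjusted p under 0.05, beside 8.94% of all genes.

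S100a6 had 288, 334, 480 and 1035 CPM in control and 288, 246, 180 and 246 CPM in MMTV-cre;Ctsd-/- tumors, which overlapped, with a log2 fold change of -1.15 (SE 0.39, unadjusted p = 0.0140, adjusted p = 0.513). S100a4 had 0.392, 0.587, 0.464 and 1.04 CPM against 0.380, 0.138, 0.0749 and 0.282 CPM, from 26 to 41 and from 5 to 25 reads, with a log2 fold change of -1.49 (SE 0.60, unadjusted p = 0.0318, adjusted p = 0.545). S100a4 was the only member whose tumor groups did not overlap, beside 4.15% of all genes. The nearest values were 0.392 and 0.380 CPM, or 26 and 25 reads.

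Control tumor 4 weighed on all of these values. It was the highest control tumor in each of the 10 genes, with 62.6 CPM of S100a8 against 13.5, 7.76 and 28.8, with 48.7 CPM of S100a14 against 10.9, 7.26 and 22.6, and with 704 CPM of S100a10 against 124, 180 and 371. Without it the log2 fold change was negative for 7 members and positive for S100a8, S100a10 and S100a11, with a median of -0.08. S100a6 kept an unadjusted p of 0.0312 at -0.62, and S100a4 was at -1.13 with an unadjusted p of 0.102. At an unadjusted p under 0.1, 5 members were lower without control tumor 2 (10.7% of all genes in that fit) and 5 without MMTV-cre;Ctsd-/- tumor 1 (12.1%), 4 without control tumor 1 (10.5%) and 3 without MMTV-cre;Ctsd-/- tumor 2 (6.45%), S100a4 and S100a6 each time among them. The summed level of the 10 genes was 1923, 1915, 2904 and 4878 CPM in control tumors 1 to 4 and 2877, 1980, 1660 and 1511 CPM in MMTV-cre;Ctsd-/- tumors 1 to 4. The share of reads set aside because they overlapped several genes was also highest in control tumors 3 and 4, with 8.44%, 9.44%, 12.4% and 15.6% in the controls and 9.75%, 8.30%, 7.77% and 7.11% in the MMTV-cre;Ctsd-/- tumors. Control tumor 4 was also the smallest tumor library. The part of this share in the S100 levels was not tested.

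**Figure D5:**
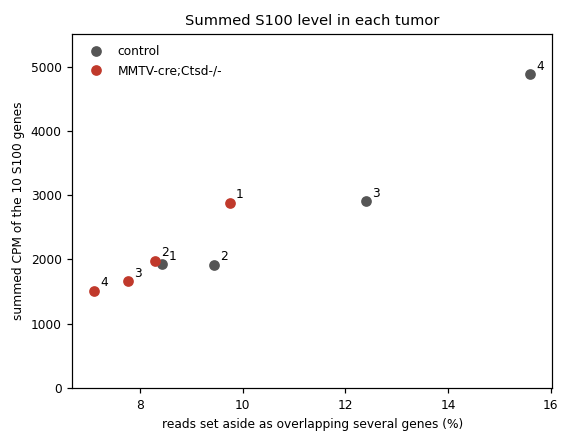
The summed CPM of the 10 S100 genes is plotted against the percentage of reads set aside as overlapping several genes, with a numbered point for each of the 8 tumors in grey (control) or red (MMTV-cre;Ctsd-/-). Control tumors 3 and 4, at 12.4% and 15.6%, have summed levels of 2904 and 4878 CPM, and 5 of the other 6 tumors lie at or below 1980 CPM.

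S100a8 had 22.3, 19.8, 12.9 and 15.6 CPM in MMTV-cre;Ctsd-/- tumors, within the range of the control tumors. S100a9 had 0.241, 1.68, 4.16 and 10.5 CPM in control and 0.547, 0.430, 3.52 and 2.72 CPM in MMTV-cre;Ctsd-/- tumors, so that both groups spread over more than a factor of 8. The ratio of S100a8 to S100a9 counts was 55.9, 4.62, 6.92 and 5.98 in control tumors and 40.7, 46.0, 3.67 and 5.74 in MMTV-cre;Ctsd-/- tumors, with 3 tumors above 40 and 5 below 7. The genotypes did not separate (exact permutation p = 0.943). The 10 neutrophil markers summed to between 6.42 and 15.1 CPM per tumor. The S100a10 to Anxa2 ratio ranged from 0.129 to 0.518 in controls and from 0.170 to 0.363 in MMTV-cre;Ctsd-/- tumors (exact permutation p = 0.829).

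S100a16 stood at 406, 336, 734 and 1046 CPM in control tumors and at 636, 396, 328 and 193 CPM in MMTV-cre;Ctsd-/- tumors (adjusted p = 0.628). S100a11, S100a1, S100a13, S100a10, S100a14, S100a8 and S100a9 overlapped between the groups as well, with adjusted p-values from 0.666 to 0.834.

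Markers of other cell types varied between the tumors as well. Adipocyte markers summed to 866, 3179, 519 and 5556 CPM in control and to 7965, 3300, 10270 and 22630 CPM in MMTV-cre;Ctsd-/- tumors, with Cfd the most abundant. All 6 had a positive log2 fold change with an unadjusted p under 0.1, beside 8.44% of all genes, with a median of 2.71, while none was called and the groups of each gene overlapped. At the same threshold 2 of 3 endothelial markers and 1 each of the fibroblast, mesenchymal, Schwann and lymphocyte markers were positive, 1 of 5 skeletal muscle markers was negative, and no neutrophil, macrophage, luminal, basal or keratinocyte marker passed. Skeletal muscle markers, led by Acta1, summed to 966 CPM in control tumor 4 and to 237 CPM in MMTV-cre;Ctsd-/- tumor 1, the tumors with the highest S100a1 of their groups, and to at most 63.5 CPM in the other 6. Luminal epithelial markers summed to 9298 CPM in control tumor 4 and to 5233 to 6853 CPM in the other 7 tumors. Members of that list did not move alike. Epcam and Krt8 were highest in control tumor 4, at 715 and 1842 CPM. Cdh1 was lowest there, at 186 CPM against 242 to 453 CPM in the other 7. The fibroblast markers of control tumor 4, 1223 CPM, were second lowest. Endothelial markers summed to 26.2 to 75.3 CPM in control and 40.5 to 195 CPM in MMTV-cre;Ctsd-/- tumors, and lymphocyte markers to at most 10.7 CPM in any tumor. Macrophage markers, led by Lyz2, summed to 835 to 2097 CPM per tumor. Keratinocyte markers had their highest sum, 26.4 CPM, in control tumor 4. The part of these cell types in the S100 levels was not tested.

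Other lists gave few calls in tumors, where an unadjusted p under 0.05 was reached by 8.94% of all genes in edgeR, 11.4% in DESeq2 and 7.40% in limma-voom. Of the other S100 genes, S100a3, S100b and S100g were tested, and edgeR called 0 of them at an adjusted p under 0.05 and none had an unadjusted p under 0.05, while DESeq2 had 1 unadjusted and limma-voom 0. Of 15 partners and receptors edgeR and limma-voom called 0 and DESeq2 called 1, beside 1.42% of all genes, with 1 at an unadjusted p under 0.05 in each. Of 10 annexins, 9 other EF-hand proteins and 1 fused-type gene none passed in edgeR, DESeq2 or limma-voom, and none had an unadjusted p under 0.05. Of 5 neighbours on chromosome 3 none was called by any of these tools, with 2 at an unadjusted p under 0.05 in edgeR, 3 in DESeq2 and 1 in limma-voom. The median log2 fold change was -0.08 for partners and receptors, -0.07 for annexins and -0.13 for the other EF-hand proteins. It was -0.92 for the 3 other S100 genes and -0.92 for the 5 neighbours, lists that share S100a3. The 1 fused-type gene was at 0.48.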

How the data were processed

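RNA was sequenced from 8 tumors and 12 tumor cell samples. The authors trimmed reads with Trimmomatic, aligned them to the mouse genome mm10 with STAR and deposited STAR's counts of reads per gene, as raw counts in an unstranded form and 2 stranded forms per sample. The annotation release behind the counts is not given in the sources used here. The authors tested differences with limma. Here the unstranded counts were used for tumors, where 52.8 to 53.7% of stranded counts fell on the opposite strand, and the opposite-strand counts for cells (97.1 to 97.3%). Rows that name no gene were left out. The share of reads set aside as ambiguous was 7.11 to 15.6% in tumors and 1.11 to 1.25% in cells. Symbols came from GENCODE M21, which holds 45143 of the 45706 identifiers.

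Genes with low counts were filtered with edgeR's filterByExpr, and 18617 tumor and 15178 cell genes were tested. Tumors and cells were fitted separately with edgeR 4.0.16 (R 4.3.3), by TMM normalization and the quasi-likelihood test with Benjamini-Hochberg adjustment over all genes. The corrected comparison is the interaction of genotype and time. Ratios of 2 genes were compared by two-sided exact permutation tests on the log2 scale. DESeq2 1.42.0, limma-voom (limma 3.58.1), other size factors, other filters, the other count form, the 2 groups compared alone, a replicate block, the 8 cell samples of a single batch code and leaving out each replicate were alternatives. The procedure was tested on simulated data. The members, the gene lists and the tests were chosen with earlier results of these data known. The text names Ctsd, all 10 members, the other measured S100 genes, up to 3 called genes with the largest log2 fold change of each other list and comparison, the most abundant gene of a marker list and markers at 0, and the 3 genes nearest in profile to each of the 4 members with the widest range of group means. Sprr1a, Vim, Epcam, Krt8 and Cdh1 are named besides, after their values were seen. Counts of a sample are reads without molecular identifiers, so floors cover counting error only.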

Additional observations from a re-analysis of the deposited data

Results flagged for a closer look

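Among the tumors 2 values stood far from the others of their group. S100a1 in MMTV-cre;Ctsd-/- tumor 1 had 382 CPM, and its gap to the next tumor was 0.853 of the range of the group. S100a11 in control tumor 4 had 1206 CPM, with a gap of 0.838 of the range, where a gap above 0.829 counts for 4 samples. Of 20 combinations of gene and tumor group examined, 2 were beyond it, and chance passes it in about 1 of 20 groups.

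For 3 genes the genotype difference in 1% FCS LT departed from that in 1% FCS by the interaction test of edgeR. The values were -6.26 for S100a14, -2.96 for S100a16 and -0.90 for S100a11 on the log2 scale.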

How the results depend on the processing

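All calls below are counts of S100 members past the threshold or log2 fold changes, and the cause of a change was not tested. The alternatives were limma-voom, DESeq2, DESeq2 size factors, the 2 other filters, the other count form, the 2 groups alone, a replicate block and a single batch code. Under them 53 of 57 counts and ratios were kept. A count was kept if it stayed within 1.5 times its value. A ratio was kept if its sign and its side of an adjusted p of 0.05 stayed the same. Ratios in cells could not pass 0.05, so for them only a change of sign could show. The exceptions were the change with time in Ctsd-/- cells, with 1 called member in place of 0 under DESeq2 (S100a4), the single batch code (S100a10) and the 2 groups alone (S100a8), and the corrected comparison, with 5 in the single batch code. For that change with time, 238 genes were called higher and 123 lower of 15178 in the reported fit. DESeq2 called 664 and 413, and the single batch code 515 and 241 of 15166. In the corrected comparison of the single batch code 27.7% of all genes were called. The S100a10 call in 1% FCS was lost with the 2 groups alone and that of S100a1 in the single batch code. Differences near 0 that never passed the test changed sign. S100a10 in 1% FCS LT became -0.002949 under DESeq2, -0.002947 with its size factors, -0.01686 in the single batch code and -0.007844 with the 2 groups alone. S100a6 with time in Ctsd-/- cells became -0.005907, -0.005905, -0.003238 with the other count form and -0.3312 in the single batch code, where S100a1 became -0.1838.

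Leaving out each replicate gave 1 to 5 members at an unadjusted p under 0.1 in tumors, 7 to 8 called in 1% FCS, 4 to 5 in 1% FCS LT, 0 to 1 with time in Ctsd-/- and 3 to 6 in Ctsd+/+ cells, and 2 to 5 in the corrected comparison. In tumors S100a8 ranged from -0.98 to 0.076, S100a11 from -0.40 to 0.002569 and S100a10 from -0.83 to 0.05625. S100a6 in 1% FCS ranged from -0.01463 to 0.38 and S100a10 in 1% FCS LT from -0.07732 to 0.07711. With time in Ctsd-/- cells S100a1 ranged from -0.07748 to 0.29 and S100a6 from -0.24 to 0.15. In the corrected comparison S100a1 ranged from -0.31 to 0.06426 and S100a8 from -3.16 to 0.99. The log2 difference of the S100a10 to Anxa2 ratio in tumors ranged from -0.48 to 0.19, and that of S100a8 to S100a9 from -0.10 to 1.29.

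With the replicate number as a block, 2 members in tumors were at an unadjusted p under 0.1, and 8 in 1% FCS, 5 in 1% FCS LT, 0 and 4 with time in Ctsd-/- and Ctsd+/+ cells and 4 in the corrected comparison were called, S100a6 being added there. Over all 18617 tumor genes the block gave 1105 higher and 711 lower at that unadjusted threshold, against 1572 and 1540 in the reported fit. Of 15178 cell genes, 3651 were called higher and 3828 lower in 1% FCS, and 3181 and 2989 in 1% FCS LT. With time they were 254 and 143 in Ctsd-/- and 3570 and 3586 in Ctsd+/+ cells, and in the corrected comparison 2493 and 2226. The correlations over genes between the deviations of same-numbered samples were 0.362, 0.09997 and 0.299 in 1% FCS, 0.070, 0.00181 and 0.119 in 1% FCS LT, 0.192, 0.0766 and 0.173 with time in Ctsd-/- cells, and negative for all pairs in tumors and with time in Ctsd+/+ cells. In no comparison were all above 0.1, which 0.09997 in 1% FCS missed narrowly. Mean correlations with differently numbered samples were -0.189, -0.0334 and -0.156 in 1% FCS and -0.0306, 0.000165 and -0.0643 in 1% FCS LT. With time in Ctsd-/- cells they were -0.132, -0.0306 and -0.0575. Each of these lay below its same-numbered value. In tumors and with time in Ctsd+/+ cells the same-numbered values were the lower ones. In cells replicate 1 of the 1% FCS groups and replicate 3 of the 1% FCS LT groups each share a batch code across genotypes, while the other numbers share a single code and the labels do not say what a code stands for, so that the reported fits have no block. S100a9 in cells, S100a8 in Ctsd+/+ cells and S100a4 in Ctsd-/- samples rest on few reads, which limits their precision.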

Other observations

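S100b, a marker of Schwann and other neural cells, had 4.05, 0.0258 and 0.0968 CPM in 1% FCS LT Ctsd-/- samples and 0.243, 0.959 and 0.355 CPM in 1% FCS LT Ctsd+/+ samples, so that the higher Ctsd-/- mean rests on replicate 1, and means of 12.7 CPM in control and 10.4 CPM in MMTV-cre;Ctsd-/- tumors, with ranges that overlapped. S100g, an intestinal calcium buffer, had 1.95 ± 2.01 CPM in control and 0.531 ± 0.479 CPM in MMTV-cre;Ctsd-/- tumors and no reads in 3 of the 4 cell groups. In none of these pairs was the difference called by edgeR at an adjusted p under 0.05.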
